A study of Homo sapiens with 18 samples.

Results

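The 8 h response to estradiol was followed after depletion of p53 with an siRNA (sip53) in PEO1, an established line from human ovarian carcinoma of the high-grade serous type. The comparison holds the 3 samples given 10 nM estradiol (E2) for 8 h and the 3 samples at 0 h, which were untreated, and it uses 6 of the 18 samples of the series. All 15318 genes that passed a low-count filter were compared. The other 12 samples are sip53 cells at 2 h and cells given a control siRNA (siControl) at 8, 2 and 0 h, with 3 samples in each of the 6 groups. In neither arm is a group labelled as kept for 8 h without E2. An effect of E2 and one of time alone therefore cannot be told apart, and the 8 h response below means both together. All groups were kept for 48 h in phenol red-free medium with charcoal-stripped serum before E2, so the 0 h cells had been depleted of hormone. The series title describes the p53 of these cells as mutant and asks about its bearing on estrogen receptor activity. The labels give the siRNAs by target only and name 1 cell line, so the response was measured under 1 p53 siRNA label in 1 line.

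Estradiol acts mainly through the estrogen receptor alpha, encoded by ESR1, a nuclear receptor that binds DNA when the hormone is present and recruits coactivators to its target genes. It binds the estrogen response element directly, or reaches DNA through other factors such as AP-1. In breast cancer cells, where the response is best known, it raises growth genes such as MYC and CCND1 and receptor cofactors such as GREB1. p53 is a transcription factor that raises cell cycle inhibitors and death genes under stress, and mutant forms can lose this role.

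The libraries were read from the 3' end of polyadenylated transcripts, so a count stands for a transcript end whatever the length of the transcript. Levels are given as CPM, counts scaled to the library total after TMM normalisation, and differences as log2 fold changes of 8 h over 0 h with their standard error (SE), from edgeR's quasi-likelihood test fitted to all 18 samples. A gene was called when its Benjamini-Hochberg adjusted p over all genes tested was under 0.05. Total counts were 10401303 to 11307199 in the sip53 8 h samples and 9225939 to 10290764 in the sip53 0 h samples. Epithelial and ovarian carcinoma markers summed to 8892 to 9035 CPM at 8 h and 7668 to 8911 CPM at 0 h. PAX8, a defining marker of this tumour type, averaged 106 CPM at 8 h and 123 CPM at 0 h, and SOX17 had no counts. Of 12 leukocyte markers 7 had no counts in any of the 6 libraries, PTPRC among them. The leukocyte list summed to 14.4 to 17.1 CPM at 8 h and 14.5 to 17.9 CPM at 0 h, most of it CD14 and CD68. Of the endothelial markers 3 of 9 in the table had no counts, and of the fibroblast markers 5 of 12. The endothelial list summed to 9.56 to 13.4 CPM at 8 h and 13.2 to 14 CPM at 0 h, most of it ENG. The fibroblast list summed to 194 to 215 CPM at 8 h and 170 to 187 CPM at 0 h, most of it THY1. In such bulk samples fewer cells of a kind and less RNA per cell cannot be told apart. Whether replicates are separate cultures is not in the labels, so that p-values here reflect spread that may be technical.

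The sip53 libraries were not alike in how far they differed from siControl. At 2 h, in libraries outside the comparison, 677 genes were called higher (4.42% of those tested) and 1194 lower (7.79%) in sip53 than in siControl cells. Over these 1871 genes each library was placed on a line that runs from 0 at the sip53 2 h mean to 1 at the siControl 2 h mean. The sip53 8 h libraries lay at 0.21, 0.38 and 0.02, and the sip53 0 h libraries at 0.68, 0.21 and 0.15, against 0.83 to 1.15 for the siControl libraries at 8 and 0 h. Replicate 1 at 0 h was thus the sip53 library nearest to siControl, followed by replicate 2 at 8 h. RPS27L, a p53 target, was also highest in these 2 of the sip53 libraries at 8 and 0 h, while the others were not in the same order. It had 18.3, 33.2 and 17.2 CPM in sip53 at 8 h and 43.9, 17.2 and 21.8 CPM in sip53 at 0 h. It measured 92.9 to 123 CPM in siControl at 8 h and 88.8 to 103 CPM in siControl at 0 h. RPS27L differs between the arms, as the genes of the line do, so it is not separate support for these places. The line was drawn after the data were seen, and the main counts are given with and without these 2 libraries.

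At 8 h 238 genes were higher (1.55% of those tested) and 181 were lower (1.18%) than at 0 h, together 2.74%. The median of the called genes was a log2 fold change of 0.74 among the higher and -0.60 among the lower, beside -0.01 over all genes. The change reached 2-fold for 67 of the higher and 28 of the lower genes. The 3 samples at 8 h lay wholly above or below the 3 at 0 h for 237 of the genes called higher and 178 of those called lower, where 10.3% of all genes tested lay wholly above and 9.28% wholly below, together 19.6%. Protein-coding genes made up 87% of the higher and 92.3% of the lower genes, beside 83.1% of all tested. The 238 higher genes hold 232 distinct patterns of counts, since 7 rows of U1 small nuclear RNA carry identical values. Without replicate 1 at 0 h 162 genes were called higher and 106 lower, and 146 and 97 of these were among the first lists. Without that library and replicate 2 at 8 h, the counts were 121 and 81. Replicate 3 weighed as much, with 144 higher and 69 lower without its 8 h library and 140 and 115 without its 0 h library, and 111 were lower without replicate 2 at 0 h. In all 98 of the higher and 48 of the lower genes were called in each of the 6 fits that left out 1 library. Of the genes called higher 11.8% were among those higher and 5.46% among those lower in sip53 than in siControl at 2 h. Of the genes called lower 8.29% were among those higher and 16.6% among those lower in sip53 at 2 h. Of all genes these shares were 4.42% and 7.79%. The part of the 2 libraries in the result was otherwise not tested.

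**Figure D1:**
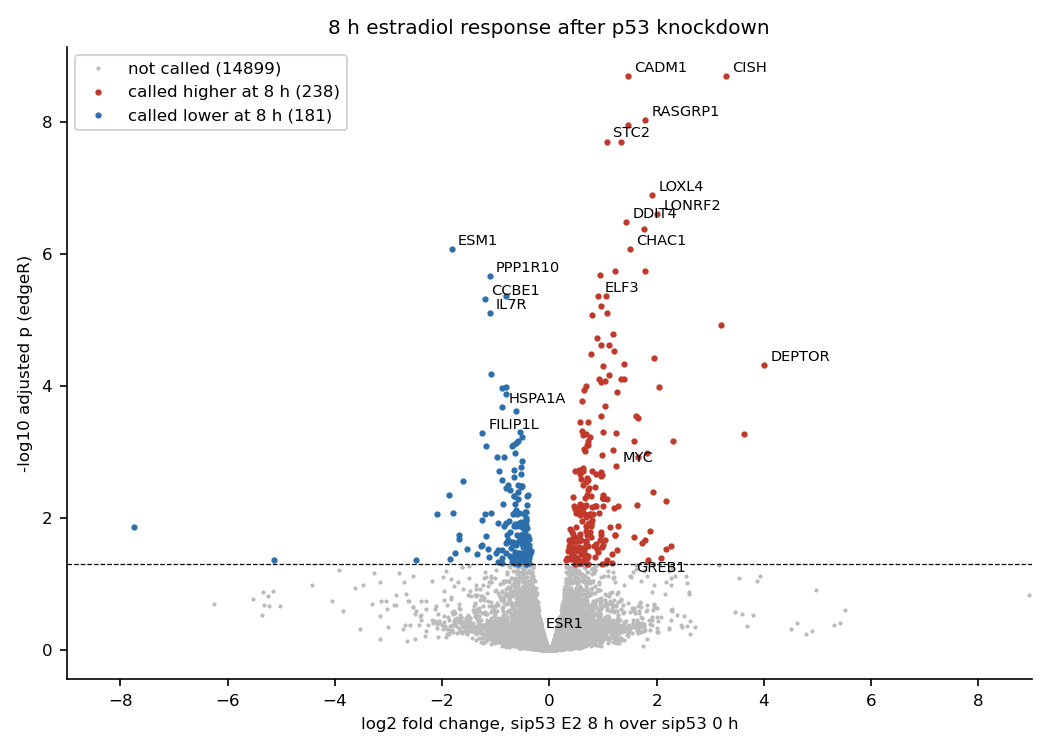
Each point is 1 of the genes tested, with the log2 fold change of sip53 E2 8 h over sip53 0 h across and -log10 of edgeR's adjusted p up; red and blue points are the 238 genes called higher and the 181 called lower, and the dashed line marks an adjusted p of 0.05. CISH and CADM1 stand highest on the right and ESM1 on the left, while ESR1 and GREB1 lie under the line; 1 gene that was not called lies outside the plotted range.

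CISH showed the largest rise among called genes with an average level of at least 3 on the log2 CPM scale, the range from which the largest changes were named. It encodes a suppressor of cytokine signalling that is itself a target of STAT5. Its level was 22.2, 19.7 and 26.1 CPM in sip53 cells at 8 h, against 1.8, 2.35 and 2.8 CPM at 0 h. Every 8 h sample was far above every 0 h sample, though the choice of the largest changes required groups that do not overlap. The log2 fold change was 3.29 ± 0.21 (SE, adjusted p = 2.01e-09), and the call was kept when any 1 of the 6 libraries was left out. The gene lies on chromosome 3 (ENSG00000114737, 50606490 to 50611831 on GRCh38). Its promoter window is shown because it holds 4 copies of the letters TTCNNNGAA, the form of a STAT element, marked in capitals. The window is RefSeq's on GRCh38.p14, chr3:50611725-50612024 on the minus strand, from 250 bases before to 50 after the start.
CISH: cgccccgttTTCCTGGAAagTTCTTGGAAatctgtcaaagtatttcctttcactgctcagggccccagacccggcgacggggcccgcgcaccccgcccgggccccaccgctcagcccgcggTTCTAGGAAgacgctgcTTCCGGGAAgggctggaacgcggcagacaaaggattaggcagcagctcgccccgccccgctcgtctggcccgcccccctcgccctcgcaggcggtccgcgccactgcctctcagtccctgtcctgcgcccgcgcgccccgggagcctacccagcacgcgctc
The letters are the same on both strands. At least 1 copy was present in 7.44% of the 242 windows of genes called higher, in 8.04% of the 224 windows of genes called lower and in 6.28% of the 15930 windows of all genes tested.

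The full estrogen response element (GGTCA, any 3 bases, then TGACC), searched on both strands, was found in 0 windows of the genes called higher, 0 of those called lower and 2 of all windows (0.0126%). Its core GGTCA, which lies within the full element, was in 30.6% of the windows of genes called higher, 33% of those of genes called lower and 34.3% of all. These windows are short, and sites farther from the start were not analysed here.

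RASGRP1, an exchange factor that activates Ras, had 58, 70.2 and 61.7 CPM at 8 h, against 20.4, 16.9 and 17.6 CPM at 0 h, a log2 fold change of 1.79 ± 0.13 (adjusted p = 9.43e-09). LOXL4, a member of the lysyl oxidase family that cross-links collagen, had 88.8, 75.5 and 92.1 CPM at 8 h, against 23.5, 20.7 and 23.5 CPM at 0 h, a log2 fold change of 1.92 ± 0.17 (adjusted p = 1.29e-07). Neither gene's groups overlapped, which the choice of the largest changes required. CADM1, a cell adhesion molecule of the immunoglobulin family, had 492, 515 and 504 CPM at 8 h, against 187, 181 and 181 CPM at 0 h, and its log2 fold change was 1.46 ± 0.10 (adjusted p = 2.01e-09). The samples of each time lay close together beside the gap between the times.

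Of the solute carriers, SLC22A3, an organic cation transporter, rose by a log2 fold change of 1.78 ± 0.18 and SLC22A5, the carnitine transporter, by 1.77 ± 0.17. LONRF2, a RING finger protein, rose by 2.01 ± 0.18 and RNF223, another, by 1.40 ± 0.19. ST6GALNAC2, a sialyltransferase, rose by 1.65 ± 0.25. The transcription factors KLF4 and IRX3, a homeobox protein, rose by 1.39 ± 0.18 and 1.34 ± 0.11. Adjusted p of these 7 genes in edgeR's test ran from 2e-08 for IRX3 to 0.000301 for ST6GALNAC2, and each call was kept when any 1 of the 6 libraries was left out. The plot of levels by gene shows the 3 samples of each time for these genes.

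**Figure D2:**
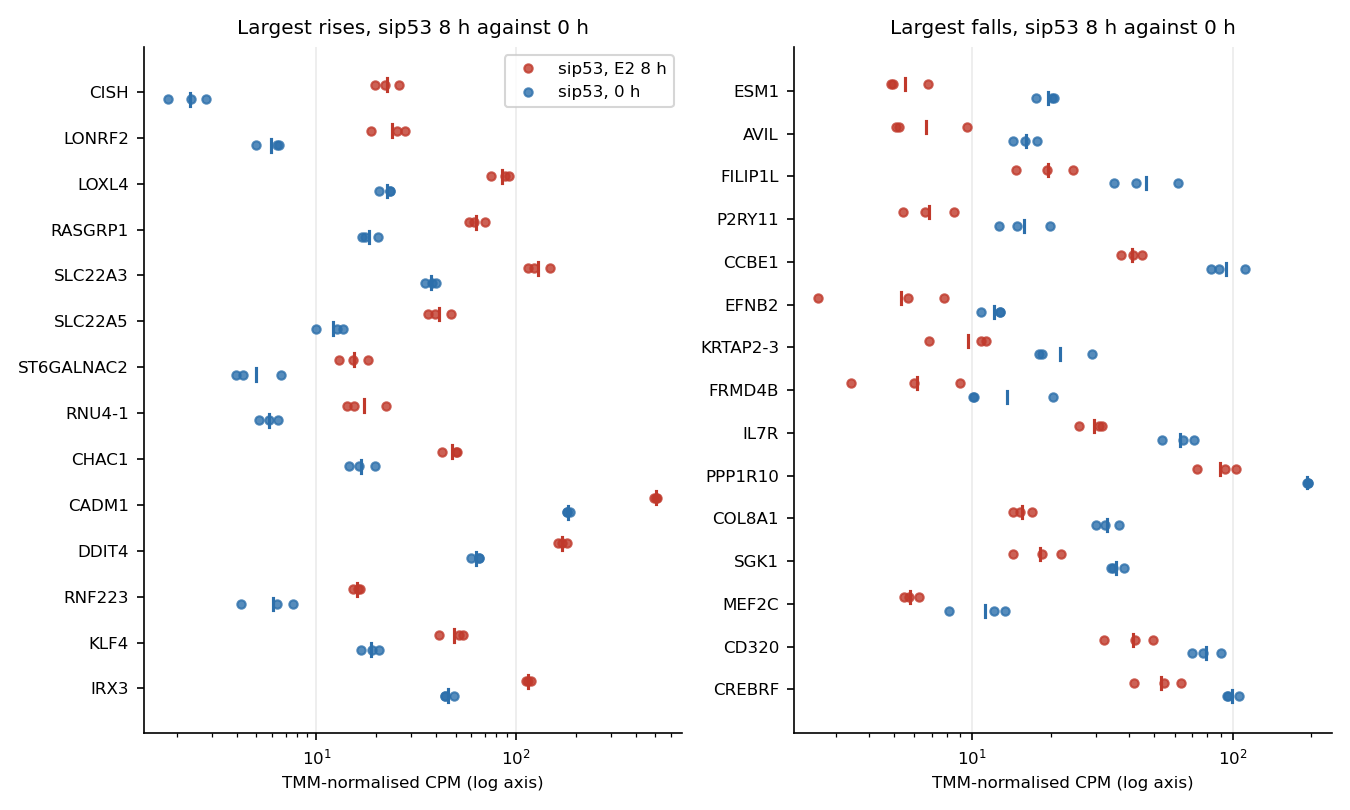
Levels of 14 of the 15 largest rises (left) and the 15 largest falls (right) in TMM-normalised CPM on a log axis; red points are the 3 sip53 E2 8 h samples, blue points the 3 sip53 0 h samples and the short bars their means. No gene's red and blue points overlap, which the choice of genes required; CISH shows the widest gap on the left and ESM1 on the right.

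ESM1, a secreted proteoglycan also called endocan, showed the largest fall in the same range. It had 4.89, 4.98 and 6.74 CPM at 8 h, against 20.3, 17.6 and 20.7 CPM at 0 h. The log2 fold change was -1.82 ± 0.18 (adjusted p = 8.55e-07). PPP1R10, a nuclear regulatory subunit of protein phosphatase 1, had 93.1, 103 and 72.7 CPM at 8 h, against 193, 194 and 194 CPM at 0 h, a log2 fold change of -1.11 ± 0.12 (adjusted p = 2.19e-06). In both genes the groups were well apart, though the choice of the largest changes required that they not overlap. IL7R, the interleukin 7 receptor, had 30.8, 31.4 and 25.6 CPM at 8 h, against 70.9, 53.8 and 64.4 CPM at 0 h (log2 fold change -1.11 ± 0.13, adjusted p = 7.97e-06).

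CCBE1, which acts in the processing of lymphatic growth factor, fell by 1.20 ± 0.13 on the log2 scale, and COL8A1, a short-chain collagen, by 1.09 ± 0.15. KRTAP2-3, a keratin-associated protein with near-identical family members, fell by 1.18 ± 0.20, and how the counting split reads within that family is not known here. SGK1, a serum- and hormone-responsive kinase, fell by 0.97 ± 0.17. CD320, the receptor for transcobalamin-bound vitamin B12, fell by 0.93 ± 0.17, and CREBRF, a regulator of CREB3, by 0.89 ± 0.17. These 6 calls were kept in all 6 fits that left out 1 library, with adjusted p of 4.88e-06 to 0.00261 in edgeR's test.

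FILIP1L had 19.3, 24.4 and 14.7 CPM at 8 h, against 61.7, 42.5 and 35 CPM at 0 h, and its call was kept in all 6 (log2 fold change -1.25 ± 0.20, adjusted p = 0.000521). Its highest value was in replicate 1 at 0 h. The remaining large falls rested on fewer fits. AVIL, an actin-binding protein, P2RY11, a purine receptor whose gene overlaps a read-through transcript of its neighbour PPAN, EFNB2, an ephrin ligand, FRMD4B and the transcription factor MEF2C had log2 fold changes of -1.27, -1.20, -1.18, -1.15 and -0.95, and their calls were kept in 2, 4, 3, 3 and 3 of the 6 fits. FRMD4B was no longer called without replicate 1 at 0 h, with a log2 fold change of -0.72 (adjusted p = 0.25).

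The estrogen receptor transcript was not called. ESR1 had 86.7, 87.3 and 78.9 CPM in sip53 cells at 8 h, against 97.5, 92.7 and 96.1 CPM at 0 h, which do not overlap, with a log2 fold change of -0.18 ± 0.12 (adjusted p = 0.524). GREB1, a receptor cofactor and a standard estrogen target in breast cancer cells, was low, with 6.04, 3.45 and 5.98 CPM at 8 h and 1.2, 2.03 and 2.18 CPM at 0 h. All 3 samples at 8 h were above those at 0 h, but the log2 fold change of 1.51 ± 0.45 was not called (adjusted p = 0.0748). GREB1 was called by DESeq2 (adjusted p = 0.0258), in a fit to the 9 sip53 samples (adjusted p = 0.0297) and without the low-count filter (adjusted p = 0.0247), and its adjusted p ran from 0.0247 to 0.252 over all alternatives. PGR and TFF1, further estrogen targets of breast cells, did not pass the low-count filter. Of the receptors and cofactors, 1 of 21 measured was higher and 1 lower (4.76% each, beside 1.55% and 1.18% of all genes). The higher was TFAP2C, a transcription factor that works with the estrogen receptor in breast cells (374, 365 and 423 CPM at 8 h, 226, 270 and 266 CPM at 0 h, log2 fold change 0.61 ± 0.09, adjusted p = 0.000169). The lower was the coactivator CREBBP at -0.37 ± 0.10 (adjusted p = 0.0407), a call lost in each of the 6 fits that left out 1 library.

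Among estrogen-induced genes, a list drawn from what is known mainly in breast cancer cells, 11 of 43 measured were higher (25.6%, beside 1.55% of all genes) and 0 were lower. The list's median log2 fold change was 0.35, beside -0.01 over all genes, and 30 of the 43 were above 0. This list, like all the gene lists here, was chosen with earlier results of these data known, so its share is not independent support. The count was 11 without replicate 1 at 0 h and 7 without that library and replicate 2 at 8 h. Beside CISH and RASGRP1, DEPTOR, an inhibitor of mTOR, had 14, 11.2 and 8.83 CPM at 8 h, against 0.299, 1.39 and 0.415 CPM at 0 h. Its log2 fold change was 4.01 ± 0.53 (adjusted p = 4.76e-05), from a level near 0, so that its size is less certain than its direction. STC2, a secreted glycoprotein, had 710, 778 and 721 CPM at 8 h, against 327, 352 and 363 CPM at 0 h (log2 fold change 1.08 ± 0.08, adjusted p = 2e-08).

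MYC had 33.2, 40.2 and 42.1 CPM at 8 h, against 16.4, 15.2 and 16.8 CPM at 0 h, a log2 fold change of 1.25 ± 0.22 (adjusted p = 0.00161). CCND1, which encodes cyclin D1, had 663, 640 and 608 CPM at 8 h, against 522, 440 and 486 CPM at 0 h. Its groups did not overlap and it was called (log2 fold change 0.40 ± 0.11, adjusted p = 0.0385), but the call was held in 1 of the 6 leave-one-out fits. Other called members were XBP1, FHL2, TPD52L1, IGFBP4 and KRT19, with log2 fold changes of 0.45 to 0.65. PDZK1 and CTSD, estrogen-induced in breast cells, had log2 fold changes of 0.35 ± 0.18 and 0.02 ± 0.13 and were not called. Among 15 measured genes that estrogen represses in breast cells, 0 were lower and 2 were higher (13.3%, beside 1.55% of all genes). These were BAMBI, a decoy receptor of TGF-beta signalling (0.72 ± 0.11, adjusted p = 0.000354), and the keratin KRT13 (1.78 ± 0.42, adjusted p = 0.0215), whose call was kept in 2 of the 6 fits.

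**Figure D3:**
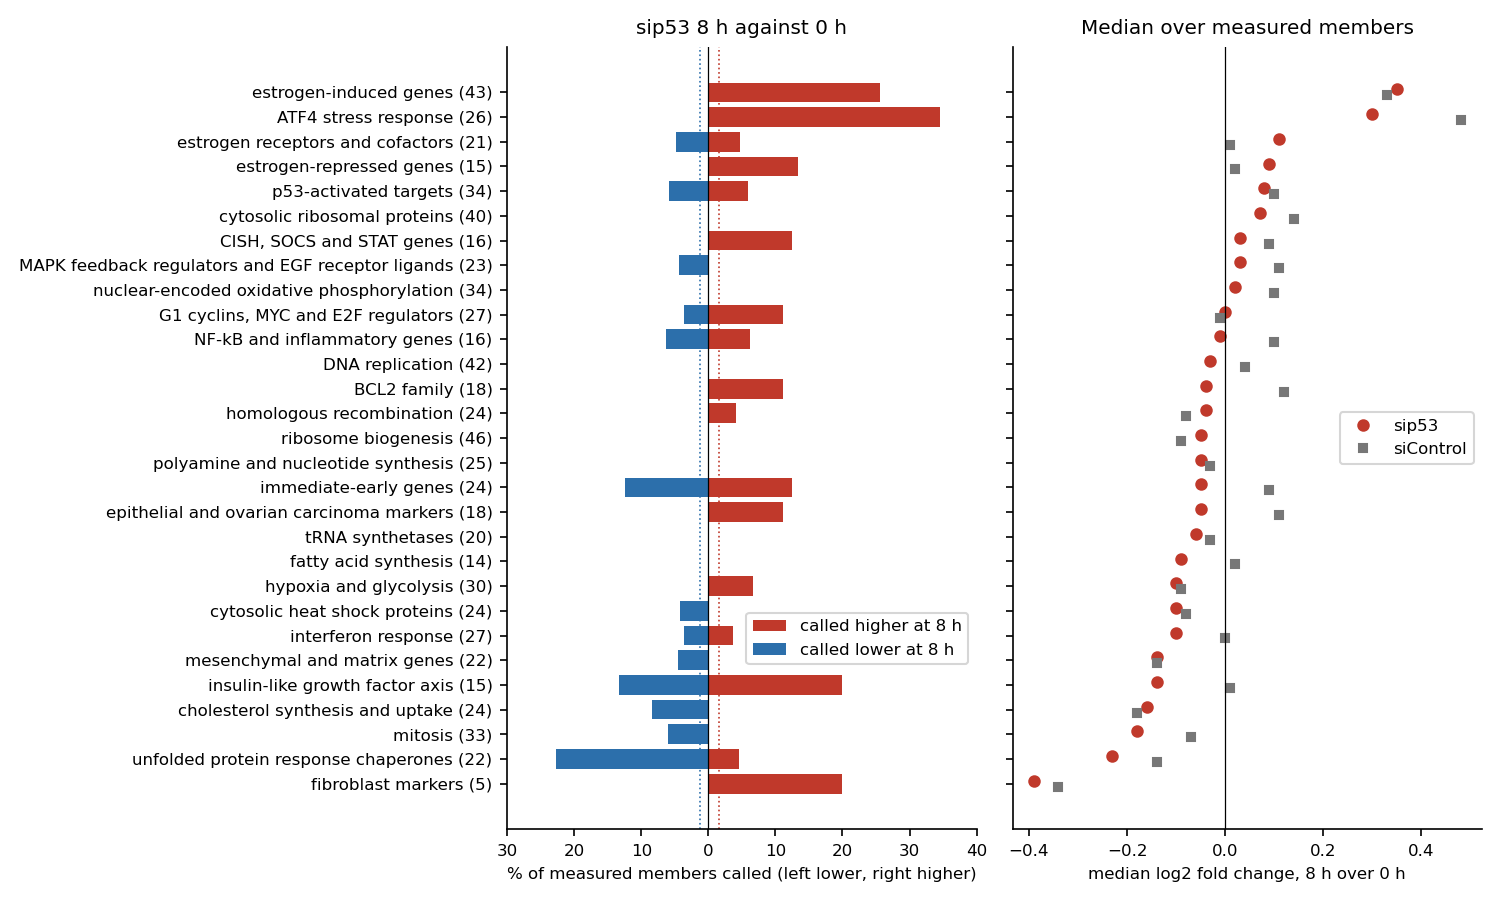
Left, the share of each list's measured members (number in brackets) called higher (red, to the right) and lower (blue, to the left) at 8 h against 0 h in sip53 cells, with dotted lines at the shares of all genes, 1.55% higher and 1.18% lower. Right, the median log2 fold change of each list in sip53 cells (red circles) and siControl cells (grey squares); estrogen-induced genes and the ATF4 stress response have the highest medians in both arms, 0.35 and 0.30 in sip53.

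The ATF4 stress response had the largest share of members called among lists of at least 10 measured genes. ATF4 is a transcription factor that is translated more when amino acids are short or proteins misfold, and its targets include amino acid transporters and regulators of mTOR. Of 26 measured members 9 were higher (34.6%, beside 1.55% of all genes) and 0 lower. The median log2 fold change was 0.30, and 23 of the 26 were above 0. The count was 9 without replicate 1 at 0 h, and 9 without that library and replicate 2 at 8 h. CHAC1, which degrades glutathione, had 51, 50.2 and 42.5 CPM at 8 h, against 19.7, 16.3 and 14.5 CPM at 0 h (log2 fold change 1.51 ± 0.15, adjusted p = 8.5e-07). DDIT4, an inhibitor of mTOR complex signalling also called REDD1, had 182, 170 and 163 CPM at 8 h, against 65.7, 59.6 and 65.4 CPM at 0 h (log2 fold change 1.43 ± 0.13, adjusted p = 3.29e-07). SESN2, a sensor of leucine, had 94.1, 90.6 and 85 CPM at 8 h, against 43.5, 45.1 and 41 CPM at 0 h (log2 fold change 1.06 ± 0.12, adjusted p = 4.33e-06). In all 3 genes the samples of the 2 times were far apart.

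The other called members, named after their values were seen, were the transcription factors DDIT3 (0.92 ± 0.13) and CEBPB (0.63 ± 0.11), the amino acid transporter subunits SLC3A2 (0.80 ± 0.09) and SLC7A5 (0.69 ± 0.10), the tRNA exporter XPOT (0.69 ± 0.17) and STC2, each value a log2 fold change with its SE. Several enzymes of the list were not called. Asparagine synthetase, ASNS, had 416, 415 and 396 CPM at 8 h and 307, 401 and 391 CPM at 0 h, groups that overlap, with a log2 fold change of 0.16 ± 0.10 (adjusted p = 0.477). The serine pathway genes PHGDH, PSAT1 and PSPH had log2 fold changes of 0.12, 0.18 and 0.21 and none was called. ATF4 itself had a log2 fold change of 0.25 ± 0.10 (adjusted p = 0.24). Of 20 tRNA synthetases, many of which ATF4 also raises, 0 were called in either direction and the median was -0.06.

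The promoter window of CHAC1, chr15:40953221-40953520 on the plus strand in RefSeq's table on GRCh38.p14, is shown for the letters TGATGNAA, the core of the element that ATF4 binds, found on the opposite strand and marked in capitals. Both strands were searched.
CHAC1: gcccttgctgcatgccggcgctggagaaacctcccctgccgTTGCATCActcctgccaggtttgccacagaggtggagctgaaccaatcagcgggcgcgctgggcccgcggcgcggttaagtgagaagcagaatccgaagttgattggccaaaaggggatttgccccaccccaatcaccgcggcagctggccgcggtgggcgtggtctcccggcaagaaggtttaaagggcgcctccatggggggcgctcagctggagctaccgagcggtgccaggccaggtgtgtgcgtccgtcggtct
These letters were in 2 of the 13 windows of the 9 ATF4 members called higher (15.4%), in 4.13% of the windows of all genes called higher, 4.02% of those of genes called lower and 2.04% of all windows.

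Among chaperones and folding enzymes of the endoplasmic reticulum more members were lower than higher. Of 22 measured members of the unfolded protein response list 5 were lower (22.7%, beside 1.18% of all genes) and 1 was higher (4.55%, beside 1.55%). The median log2 fold change was -0.23. HSPA5, the main chaperone of this compartment, had 1108, 1272 and 1171 CPM at 8 h, against 1574, 1523 and 1562 CPM at 0 h (log2 fold change -0.39 ± 0.08, adjusted p = 0.00444). CALR, calreticulin, had 817, 823 and 696 CPM at 8 h, against 1043, 1005 and 1104 CPM at 0 h (-0.43 ± 0.09, adjusted p = 0.00813). SDF2L1, a cofactor of HSPA5, had 74.9, 74.3 and 77.5 CPM at 8 h, against 112, 104 and 112 CPM at 0 h (-0.53 ± 0.09, adjusted p = 0.00165). These falls are small, but none of the groups overlapped. CALR was not called in edgeR's test without replicate 3 at 0 h (adjusted p = 0.0567) or replicate 3 at 8 h (adjusted p = 0.0923). The disulfide isomerases PDIA4 and PDIA3 had log2 fold changes of -0.50 ± 0.12 and -0.57 ± 0.15, each held in 3 of the 6 leave-one-out fits. Without replicate 1 at 0 h 3 members were lower and 1 was higher. The higher member was XBP1, a transcription factor of the response and an estrogen-induced gene, with 97.8, 97.5 and 88.5 CPM at 8 h, against 57.5, 61.1 and 61.7 CPM at 0 h (0.65 ± 0.09, adjusted p = 0.000113).

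The windows of HSPA5 (chr9:125241294-125241593, minus strand) and CALR (chr19:12938359-12938658, plus strand) hold the endoplasmic reticulum stress element (CCAAT, any 9 bases, then CCACG, searched on both strands), marked in capitals and on the opposite strand in CALR. They are RefSeq's on GRCh38.p14.
HSPA5: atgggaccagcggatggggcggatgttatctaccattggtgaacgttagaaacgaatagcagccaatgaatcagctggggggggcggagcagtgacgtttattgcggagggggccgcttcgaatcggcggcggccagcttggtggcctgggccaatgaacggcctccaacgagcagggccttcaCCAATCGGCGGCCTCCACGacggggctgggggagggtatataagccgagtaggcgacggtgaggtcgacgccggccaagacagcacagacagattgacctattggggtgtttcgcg
CALR: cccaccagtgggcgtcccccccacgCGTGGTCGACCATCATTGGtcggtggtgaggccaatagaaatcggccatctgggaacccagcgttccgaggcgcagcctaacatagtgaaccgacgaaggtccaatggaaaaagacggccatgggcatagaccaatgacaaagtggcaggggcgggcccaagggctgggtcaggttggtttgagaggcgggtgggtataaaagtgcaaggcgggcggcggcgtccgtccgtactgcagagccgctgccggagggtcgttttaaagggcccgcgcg
This element was in 2 of the 5 windows found for the chaperones called lower and in 18 of all windows (0.113%).

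Over 24 measured genes of cholesterol uptake and synthesis the median log2 fold change was -0.16. INSIG1, which holds the sterol sensor in the endoplasmic reticulum, had 76, 111 and 85.5 CPM at 8 h, against 199, 118 and 134 CPM at 0 h (-0.73 ± 0.17, adjusted p = 0.0159), and it was not called without replicate 1 at 0 h (adjusted p = 0.135). Of the cytosolic heat shock proteins 1 of 24 was lower (4.17%, beside 1.18% of all genes). This was HSPA1A (70.6, 64.2 and 79 CPM at 8 h, 132, 122 and 139 CPM at 0 h, log2 fold change -0.88 ± 0.13, adjusted p = 0.000211), whose reads are hard to separate from those of its near-identical copy HSPA1B.

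Of 42 DNA replication genes 0 were called in either direction, and the median log2 fold change was -0.03. Of 33 mitotic genes 2 were lower (6.06%, beside 1.18% of all genes). These were AURKA (-0.43 ± 0.11, adjusted p = 0.0281) and CENPE (-0.47 ± 0.13, adjusted p = 0.0439). Neither was called without replicate 1 at 0 h, replicate 1 at 8 h or replicate 3 at 8 h, each left out alone. In these fits edgeR's adjusted p ran from 0.0942 to 0.135 for AURKA and from 0.106 to 0.285 for CENPE. Of 27 G1 cyclins, MYC and E2F regulators 3 were higher (11.1%, beside 1.55% of all genes) and 1 was lower (3.7%, beside 1.18%). The higher were MYC, CCND1 and CCNE2 (0.69 ± 0.18, adjusted p = 0.0356), and the lower was CDK6 (-0.65 ± 0.18, adjusted p = 0.0481). CDK6 had its highest value, 195 CPM, in replicate 1 at 0 h, and its groups overlapped at 109 CPM. CCNE2 was called in 1 and CDK6 in 3 of the 6 leave-one-out fits. Ribosomal proteins, ribosome biogenesis, polyamine and nucleotide synthesis, fatty acid synthesis and nuclear-encoded oxidative phosphorylation had 0 members called in either direction by edgeR's test in sip53 cells.

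Of 34 measured genes that p53 activates, 2 were higher and 2 lower (5.88% each, beside 1.55% and 1.18% of all genes). Their median log2 fold change was 0.08. The higher were SESN2, which is also on the ATF4 list, and GADD45A, whose product halts growth after DNA damage (90, 119 and 93.6 CPM at 8 h, 83.6, 55.6 and 53.3 CPM at 0 h, log2 fold change 0.65 ± 0.16, adjusted p = 0.0304). GADD45A was called in 3 of the 6 leave-one-out fits. The lower were SERTAD1 (-0.52 ± 0.12, adjusted p = 0.0197) and ZMAT3 (-0.62 ± 0.16, adjusted p = 0.0371), and neither was called without replicate 1 at 0 h. CDKN1A, the cell cycle inhibitor p21, had 14.2, 10.9 and 9.4 CPM at 8 h and 12.4, 13.4 and 14.9 CPM at 0 h, groups that overlap (-0.23 ± 0.17, adjusted p = 0.589). RPS27L was not called either (-0.28 ± 0.25, adjusted p = 0.671).

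In the insulin-like growth factor axis 3 of 15 measured genes were higher (20%, beside 1.55% of all genes) and 2 lower (13.3%, beside 1.18%). INSR, the insulin receptor (0.46 ± 0.11, adjusted p = 0.0194), IGFBP4, a binding protein (0.47 ± 0.10, adjusted p = 0.00713), and STC2 were higher, and INSR was called in 3 and IGFBP4 in 4 of the 6 leave-one-out fits. IRS2, an adaptor of the insulin and insulin-like growth factor receptors, had 647, 666 and 732 CPM at 8 h, against 958, 982 and 981 CPM at 0 h (-0.51 ± 0.09, adjusted p = 0.00135), and PAPPA, a protease of binding proteins, was also lower (-0.64 ± 0.11, adjusted p = 0.00104). Of 18 BCL2 family genes 2 were higher (11.1%, beside 1.55% of all genes) and 0 lower. The higher were the death-promoting HRK (0.78 ± 0.15, adjusted p = 0.00462) and the survival gene BCL2L2 (0.89 ± 0.22, adjusted p = 0.0289). HRK was called in all 6 leave-one-out fits and BCL2L2 in 2, and BCL2L2 was not called in a fit to the 2 groups alone (adjusted p = 0.0975). Of 30 hypoxia and glycolysis genes 2 were higher (6.67%, beside 1.55% of all genes). These were VEGFA, the vascular growth factor (0.98 ± 0.17, adjusted p = 0.00112), and ADM, adrenomedullin (0.73 ± 0.14, adjusted p = 0.00373). Without both libraries that lay nearer siControl, 1 higher and 2 lower members were called in the insulin-like growth factor axis, 0 in the BCL2 family and 1 higher among the hypoxia genes.

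Immediate-early genes had 3 of 24 higher and 3 lower (12.5% each, beside 1.55% and 1.18% of all genes). The higher were KLF4, MYC and FOSL1 (0.54 ± 0.14, adjusted p = 0.042). The lower were CCN2 (-0.81 ± 0.18, adjusted p = 0.0117), IER5 (-0.63 ± 0.14, adjusted p = 0.0133) and JUN (-0.47 ± 0.11, adjusted p = 0.0133). JUN and FOSL1 encode parts of AP-1, and JUN was called in 3 and FOSL1 in 1 of the 6 leave-one-out fits. Without both libraries that lay nearer siControl 2 immediate-early genes were higher and 0 lower. Of 23 regulators of MAPK feedback and EGF receptor ligands 1 was lower (4.35%, beside 1.18% of all genes). This was the phosphatase DUSP5 (-0.53 ± 0.10, adjusted p = 0.00211). Of 16 CISH, SOCS and STAT genes 2 were higher (12.5%, beside 1.55% of all genes), CISH and the kinase PIM3 (0.37 ± 0.09, adjusted p = 0.029). PIM3 held its call in 0 of the 6 leave-one-out fits. Of 16 NF-kB and inflammatory genes 1 was higher and 1 lower (6.25% each, beside 1.55% and 1.18% of all genes). CXCL3 was higher (0.98 ± 0.27, adjusted p = 0.0497) and RELB lower (-0.66 ± 0.13, adjusted p = 0.00462). CXCL3 was called in 1 of the 6 leave-one-out fits and lost its call under RLE scaling (adjusted p = 0.0528) and upper-quartile scaling (0.056), while DESeq2 called it (0.0243). Of 27 interferon response genes 1 was higher and 1 lower (3.7% each, beside 1.55% and 1.18% of all genes). IRF1 was higher (0.67 ± 0.14, adjusted p = 0.00653) and IFIT3 lower (-0.64 ± 0.16, adjusted p = 0.0241), the first called in 5 and the second in 1 of the 6 leave-one-out fits.

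Of 18 measured epithelial and ovarian carcinoma markers 2 were higher (11.1%, beside 1.55% of all genes) and 0 lower, while the median log2 fold change was -0.05 and 7 of the 18 were above 0. ELF3, an epithelial transcription factor, had 436, 436 and 433 CPM at 8 h, against 203, 241 and 251 CPM at 0 h (0.91 ± 0.10, adjusted p = 4.33e-06). KRT19 had 2118, 2180 and 2167 CPM at 8 h, against 1425, 1611 and 1686 CPM at 0 h (0.45 ± 0.09, adjusted p = 0.0048). The samples of each time were close together in both genes. Of 22 mesenchymal and matrix genes 1, CCN2, was lower (4.55%, beside 1.18% of all genes). Of 24 genes of homologous recombination 1 was higher (4.17%, beside 1.55% of all genes). This was RBBP8, a DNA end resection factor (0.58 ± 0.12, adjusted p = 0.00617). RBBP8 was called in 4 of the 6 leave-one-out fits. Of 5 measured fibroblast markers 1 was higher (20%, beside 1.55% of all genes). This was THY1 (0.45 ± 0.11, adjusted p = 0.0202, called in 2 of the 6 leave-one-out fits). The other measured members, COL1A1, FAP, FBLN1 and PDPN, were not called and had lower means at 8 h than at 0 h, and the median log2 fold change of the list was -0.39.

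The 2 h samples place these changes in time. In sip53 cells 41 genes were higher (0.268%) and 6 lower (0.0392%) at 2 h than at 0 h, together 0.307%, and 126 were higher (0.823%) and 85 lower (0.555%) at 8 h than at 2 h, together 1.38%. The 126 rows hold 113 distinct patterns of counts, and 26 of them are small non-coding RNAs. Leaving out 1 library gave 28 to 36 higher and 2 to 8 lower genes for the first step, with 2 lower without any 1 of the 2 h libraries and 3 without replicate 3 at 0 h. For the second step it gave 61 to 107 higher and 44 to 62 lower genes, with the lowest counts of both without replicate 2 at 2 h. The contrasts share libraries with the 8 h against 0 h comparison, so their values are given side by side and not as separate support. CISH averaged 2.32, 26.8 and 22.7 CPM at 0, 2 and 8 h, so its level at 2 h was not below that at 8 h. LONRF2, RNF223, KLF4, MYC and SLC22A5 were likewise called at 2 h against 0 h and not at 8 h against 2 h. LOXL4 and STC2 were called at both steps, with LOXL4 log2 fold changes of 1.03 ± 0.17 at 2 h over 0 h and 0.89 ± 0.16 at 8 h over 2 h. CADM1, DDIT4 and CHAC1 were called at 8 h against 2 h and not at 2 h against 0 h. DDIT4 had log2 fold changes of 0.10 at 2 h over 0 h (adjusted p = 0.927) and 1.33 at 8 h over 2 h (adjusted p = 5.06e-06).

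Some genes were highest at 2 h. RETREG1, a receptor for the selective autophagy of the endoplasmic reticulum, had 38.3 to 46.8 CPM at 0 h, 130 to 133 CPM at 2 h and 59.6 to 69.3 CPM at 8 h, with a log2 fold change of -1.04 at 8 h over 2 h (adjusted p = 1.86e-05). TFAP2C had 226 to 270, 511 to 565 and 365 to 423 CPM at the 3 times. SOX7, CCN1 and PFKFB3, a regulator of glycolysis, were also higher at 2 h than at 0 h and lower at 8 h than at 2 h, and none of these 3 was called at 8 h against 0 h. Several falls were called at the later step. ESM1, CCBE1, IL7R, COL8A1 and SDF2L1 were called lower at 8 h against 2 h, while none of them was called at 2 h against 0 h. FILIP1L was an exception with a log2 fold change of -1.15 at 2 h over 0 h (adjusted p = 0.00401) and -0.11 at 8 h over 2 h.

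**Figure D4:**
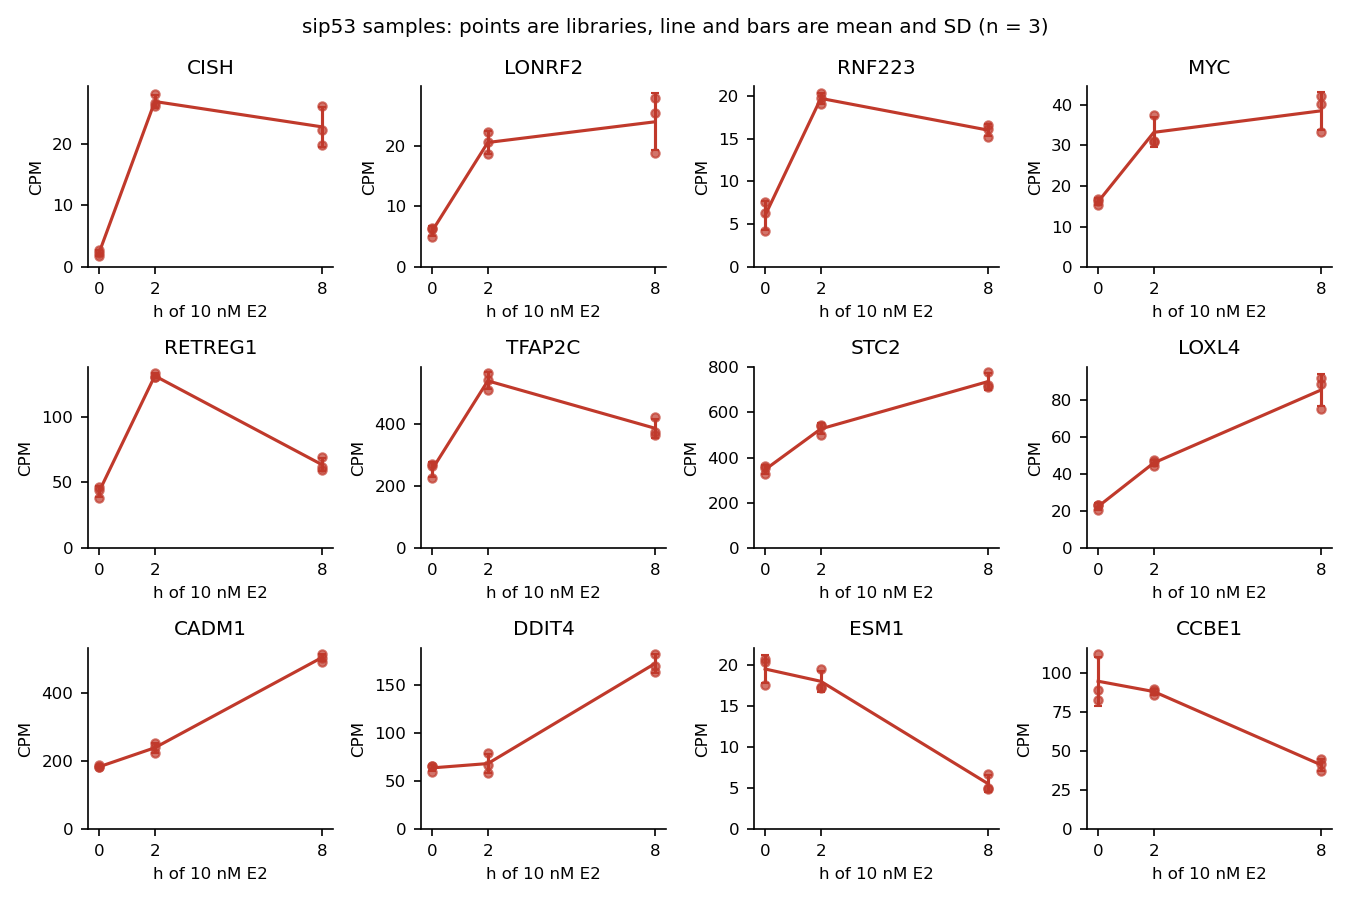
Level in CPM (linear axis from 0) of 12 genes in sip53 cells at 0, 2 and 8 h of 10 nM E2; points are single libraries, and the line and bars give the mean and SD of 3 samples. CISH, LONRF2, RNF223 and MYC are near their 8 h level by 2 h, RETREG1 and TFAP2C peak at 2 h, and CADM1, DDIT4, ESM1 and CCBE1 change mainly between 2 and 8 h.

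The 120 small non-coding RNAs tested are a class singled out after its values were seen. At 8 h against 0 h 11 of the 120 were higher, beside 238 of all 15318 genes. These 11 rows hold 5 distinct patterns of counts because the 7 U1 rows are identical. At 8 h against 2 h 26 of the 120 were higher, in 14 distinct patterns, beside 126 of all genes. The median log2 fold change of the class was 0.21 at 8 h over 0 h and 0.61 at 8 h over 2 h. RNU4-1, a U4 RNA, had 22.3, 14.2 and 15.5 CPM at 8 h, against 6.39, 5.14 and 5.8 CPM at 0 h (1.58 ± 0.26, adjusted p = 0.000685). 7SK, which restrains transcription elongation, had 459, 289 and 238 CPM at 8 h, against 139, 138 and 138 CPM at 0 h (1.25 ± 0.20, adjusted p = 0.000521). The 8 h samples were above the 0 h samples and spread widely among themselves, with replicate 1 highest. The class held 0.155%, 0.107% and 0.0999% of counts at 8 h, against 0.0855%, 0.0785% and 0.0731% at 0 h and 0.0531% to 0.0623% at 2 h. In siControl cells it held 0.138%, 0.0881% and 0.125% at 8 h and 0.0892%, 0.126% and 0.117% at 0 h, groups that overlap. These RNAs lack the long poly(A) tail of messenger RNA and come from many near-identical gene copies, so their counts are uncertain, and the part of RNA quality in this result was not tested.

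The same contrast in siControl cells, which shares no library with the sip53 comparison, called 273 genes higher (1.78%) and 126 lower (0.823%), together 2.6%. Of the 238 genes called higher in sip53 cells 235 had the same sign in siControl and 125 were called there too, which is 52.5% of the sip53 list and 45.8% of the siControl list. Of the 181 called lower in sip53 179 had the same sign and 52 were called in siControl, which is 28.7% of the sip53 list and 41.3% of the siControl list. No gene was called in opposite directions. The median log2 fold change of the sip53-called genes in siControl was 0.58 for the higher and -0.38 for the lower, beside 0.74 and -0.60 in sip53, where they were chosen. For genes chosen in siControl the order was the other way, with medians of 0.50 and -0.53 in sip53 and 0.70 and -0.77 in siControl. Without replicate 2 of siControl at 0 h, the shallowest library at 7542457 counts, 139 genes were higher and 50 lower in siControl. Its counts were 443 and 296 without replicate 1 at 0 h, 145 and 35 without replicate 2 at 8 h, 163 and 85 without replicate 3 at 8 h and 183 and 80 without replicate 1 at 8 h.

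**Figure D5:**
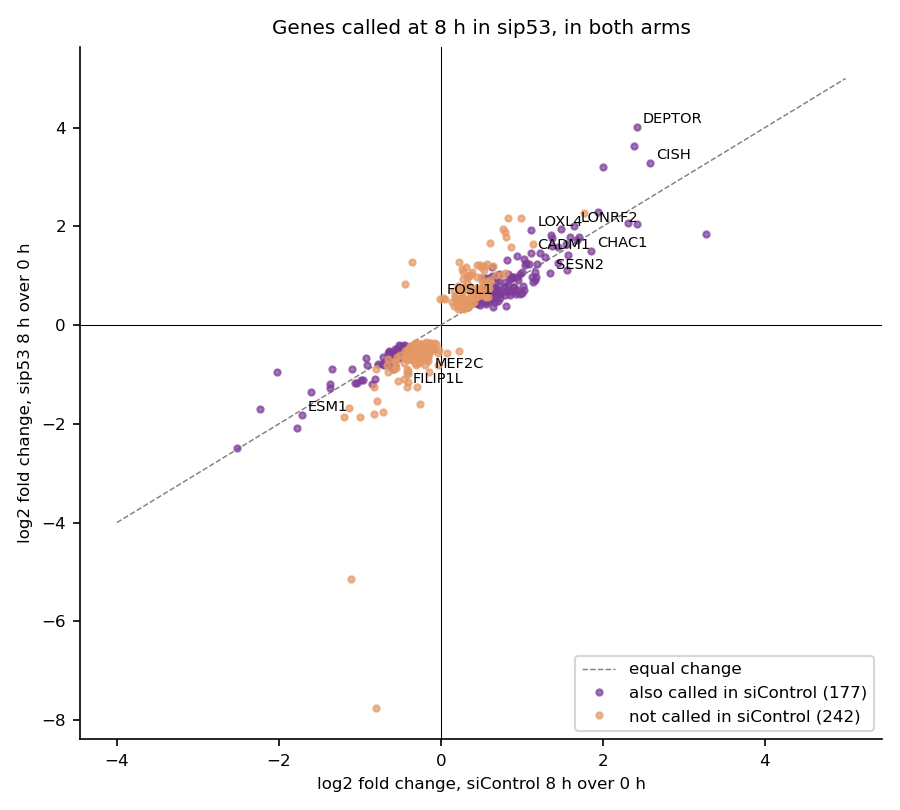
The 419 genes called at 8 h against 0 h in sip53 cells, with the log2 fold change in sip53 up and in siControl across; purple points were also called in siControl (177) and orange points were not (242), and the dashed line marks equal change. Nearly all points lie where both changes have the same sign, CISH and LOXL4 lie above the line and SESN2 and CHAC1 below it.

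A test of the difference between the arms in the 8 h response called no gene. By edgeR's test 0 genes were higher and 0 lower, with 583 at an unadjusted p under 0.05, and DESeq2 called 2 as higher, with 0 lower. Of the 238 genes called higher in sip53 38 had an unadjusted p under 0.05 for the difference, and of the 181 called lower 30. Over all 15318 genes the count was 583. The called genes were chosen by their change in sip53, which is part of this difference. The choice can itself raise their counts, which are therefore not support for a difference between the arms. Among the genes named, LOXL4 had log2 fold changes of 1.92 in sip53 and 1.12 in siControl, a difference of 0.80 ± 0.24 (unadjusted p = 0.00252). CISH had 3.29 in sip53 and 2.58 in siControl, a difference of 0.71 ± 0.32 (unadjusted p = 0.04). FILIP1L had -1.25 in sip53 and -0.42 in siControl, a difference of -0.83 (unadjusted p = 0.0063). CHAC1 had 1.51 in sip53 and 1.86 in siControl, a difference of -0.35 (unadjusted p = 0.104). None of these differences passed after adjustment over all genes. The members of the ATF4 list had a median of 0.30 in sip53 and 0.48 in siControl, with 9 and 12 of 26 called higher, and the estrogen-induced list had medians of 0.35 and 0.33, with 11 and 9 of 43 called higher. These differences between the lists' values in the arms were not tested.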

How the data were processed

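Per the labels, PEO1 cells were transfected with siControl or sip53, and 3' mRNA libraries were made with the QuantSeq kit of Lexogen. The authors deposited expected counts per gene from RSEM 1.3.3 for all 18 samples. The submitters' processing notes also name Bowtie2, cutadapt, MultiQC and hg19, and no source used here gives the annotation. The deposited values were whole numbers, so rounding changed none. Of 57736 rows 52681 were named through a single gene of GENCODE on GRCh38 and 262 through the gene of most of their transcripts, and unnamed rows held 0.631% of counts. Coordinates are those of GRCh38 and were not used with the counts.

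Genes were kept by filterByExpr (minimum count 10), scaled by TMM and fitted with edgeR 4.0.16 (R 4.3.3) by the quasi-likelihood test, with 1 coefficient per group over 18 samples and 12 residual degrees of freedom. The biological coefficient of variation was 15.2%. The SE is the absolute log2 fold change over the root of F. Adjusted p are Benjamini-Hochberg values over 15318 genes. The procedure was tested on simulated data. These gave every gene the same biological coefficient of variation and placed no sip53 library nearer siControl. The test therefore does not cover those features of the real libraries. Alternatives were DESeq2 1.42.0, other scalings, no filter, other sample sets, a replicate block and leaving out each library.

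Named were the 15 largest changes in each direction at an average of at least 3 log2 CPM with a symbol and no overlap of samples, up to 4 called members of each list per direction, the 8 largest of 8 h against 2 h per direction, and a few fixed genes. FHL2, TPD52L1, PDIA3, PAX8, DDIT3, CEBPB, SLC3A2, SLC7A5 and XPOT, the uncalled members and the members of time patterns fall outside this rule and were named after their values were seen. The genes, the 31 lists and the motifs were chosen with earlier results of these data known. Results for some single genes, among them the transcript that the p53 siRNA targets, are not reported here.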

Additional observations from a re-analysis of the deposited data

How the results depend on the processing

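The direction of every gene that the naming rule chose in the 8 h against 0 h comparison of sip53 was kept under the alternatives run, except RPS27L, which was not called and whose log2 fold change was 0.23 without sip53 0 h replicate 1 and ran from -0.65 to 0.23 over the fits that left out 1 library. With no low-count filter the counts of genes higher and lower were 374 and 327 at 8 h against 0 h, 87 and 117 at 2 h against 0 h, 264 and 139 at 8 h against 2 h, 451 and 338 in siControl, and 29 and 25 for the difference between arms. A fit to the contrast's own samples gave 86 lower at 8 h against 0 h, 13 lower at 2 h against 0 h, 224 and 151 at 8 h against 2 h, and 91 and 40 in siControl. DESeq2 gave 292 lower at 8 h against 0 h, 65 and 29 at 2 h against 0 h, 227 and 179 at 8 h against 2 h, 285 lower in siControl, and 2 higher for the difference between arms. The cause of these moves was not tested. Without both libraries nearer siControl, an alternative chosen after seeing the data, 121 were higher and 81 lower. Leaving out 1 library gave 140 to 186 higher and 69 to 157 lower at 8 h against 0 h, 28 to 36 and 2 to 8 at 2 h against 0 h, 61 to 107 and 44 to 62 at 8 h against 2 h, 139 to 443 and 35 to 296 in siControl, and 0 for the difference between arms. With the replicate block 226 were higher and 177 lower at 8 h against 0 h. The same-numbered samples' deviations from their group means had correlations of -0.0419, -0.135 and 0.0912. With 3 samples in each group these values cannot show whether the numbers pair the samples, and the labels do not say. Of 76 named calls 45 were kept in each fit that left out 1 library. Total counts of 7542457 to 11307199 limit what low genes such as GREB1 can show.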
